A study of Mus musculus with 105 samples.

Results

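The experiment described here is the knockout of Setdb1 in MCA101OVA cells. It comprised 3 knockout (KO) libraries and 3 control (Ctrl) libraries, chosen by their sample titles, 6 of the 105 libraries of the series. MCA101 is a mouse fibrosarcoma line induced with methylcholanthrene on the C57BL/6 background, and the OVA variant carries ovalbumin as a model antigen. The series is poly(A) RNA sequencing of mouse tumour lines in culture, cultured melanocytes and 12 healthy tissues. Cells of both groups grew in RPMI with fetal calf serum and puromycin before lysis in Trizol. The KO group is labelled as lacking Setdb1 and the Ctrl group as its control. What the control cells carry is not said, nor whether a group is a clone or a pool. As a further reference served 3 unmodified (WT) MCA101OVA libraries sequenced in the same runs, and the KO and Ctrl libraries of 3 other tumour lines (B16, B16OVA and MC38, 24 libraries in all) entered a comparison of the knockout effect between lines. The 9 MCA101OVA libraries fell into 3 sets by run and library number, each with 1 WT, 1 Ctrl and 1 KO library, and values are given in the order of sets 1, 2 and 3. Nothing in the labels says that replicates came from separate cultures, so p-values measure the spread between libraries, which may be technical. That spread was estimated over 45 cultured libraries of MCA101OVA, B16, B16OVA and MC38 together.

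Setdb1 is a histone methyltransferase that places methyl groups on lysine 9 of histone H3. It is recruited with the corepressor Trim28 to transposable elements by KRAB zinc finger proteins, and with the HUSH complex to transcribed repeats and some genes. In embryonic cells it is known for keeping germ line genes and endogenous retroviruses silent, and its cofactor Atf7ip holds it in the nucleus.

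Depth was 21893710 to 43028838 counts in the 9 libraries, and between 18083 and 20333 genes had at least 1 count. Mesenchymal genes were abundant. Vim lay between 1756 and 6646 counts per 1000000 library counts (CPM), Col3a1 between 43.1 and 579 CPM and Twist2 between 39.1 and 71.96 CPM, but Col1a1 stayed at or under 0.658 CPM, Col1a2 and Fap were near 0 and Thy1 was at 0 in all 9 libraries. Epcam was also at 0 in all 9, although Krt8 (557 to 986 CPM) and Krt18 (297 to 758 CPM) were high. The summed levels of 15 leukocyte markers were 9.90 to 24.2 CPM, with Cd3e, Cd4 and Ms4a1 at 0, those of 10 melanocyte markers 8.15 to 26.9 CPM and those of 8 endothelial markers 0.305 to 2.48 CPM. The libraries differed in how their levels depended on transcript length. The length slope, in log2 CPM per log2 transcript length, was -0.0709, -0.700 and 0.260 in Ctrl, 0.350, -0.154 and 0.131 in KO, and 0.0936, -0.0762 and 0.166 in WT. KO minus Ctrl was thus 0.420 in set 1, 0.545 in set 2 and -0.129 in set 3. The part of this difference in the results below was examined only through a fit that carries the slope as a term, that fit with Ctrl replicate 2 or 3 left out, and fits without single libraries.

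The transcript of Setdb1 itself, on the minus strand of chromosome 3 at 95323525 to 95357202 (mm10), was measured first. It stood at 95.7, 45.7 and 62.6 CPM in Ctrl, 36.7, 20.4 and 26.7 in KO and 84.2, 85.1 and 61.2 in WT. Every KO library lay below every Ctrl and WT library. The means were 68.0 ± 25.5 CPM in Ctrl and 27.9 ± 8.22 in KO (SD, n = 3 each). On the log2 scale the fold was -1.39, with an SE of 0.26 (edgeR, adjusted p = 0.0025 over 16809 genes). In 2 MCA101 libraries of another run, with and without ovalbumin, Setdb1 stood at 87.4 and 96.0 CPM. Gene counts read neither the protein nor the edited bases. Bulk RNA cannot tell whether the remaining transcript came from fewer cells with an intact gene or from less RNA per cell. The call was lost when Ctrl replicate 1 (adjusted p = 0.0658) or KO replicate 2 (adjusted p = 0.0661) was left out.

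**Figure D1:**
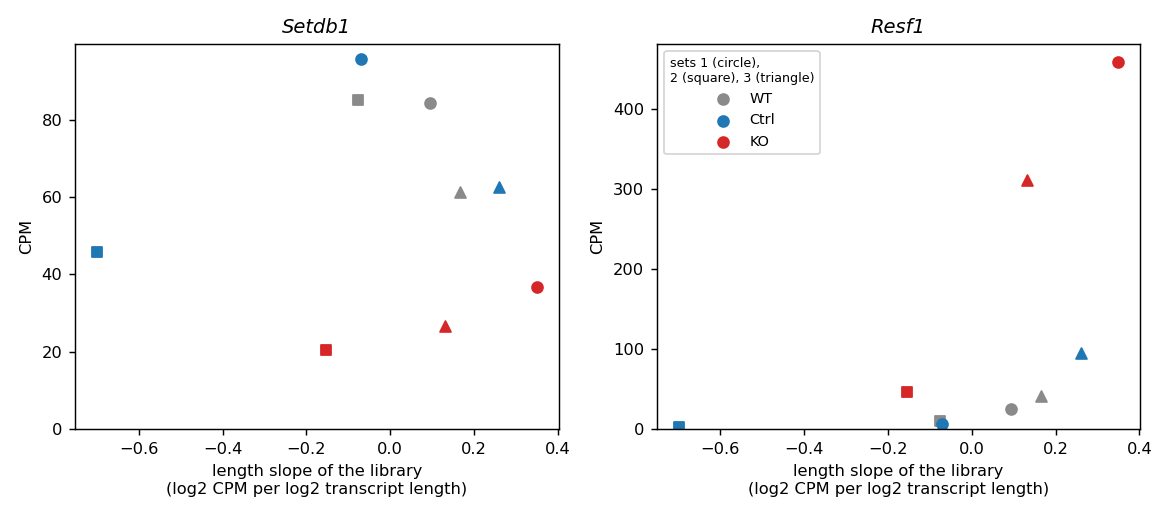
Setdb1 and Resf1 levels in CPM (vertical axes, linear) against the length slope of each of the 9 MCA101OVA libraries (horizontal axes); colour gives the group and marker shape the library set. KO libraries hold the 3 lowest Setdb1 levels, from 20.4 to 36.7 CPM, while Resf1 is lowest in the Ctrl library with a slope of -0.700.

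Against Ctrl, knockout cells showed almost only gains. Of 16809 tested genes, 79 rose in KO (0.47% of those tested) and 2 fell (0.0119%), Setdb1 and Dennd2d, at an adjusted p under 0.05. These shares are the background for each count of list members called against Ctrl below. Of the raised genes, 59 are annotated as protein-coding, 14 as long non-coding or antisense transcripts and 5 as pseudogenes. All 79 were higher in KO than in Ctrl in each of the 3 sets, and in 67 each KO library exceeded all 6 Ctrl and WT libraries, an ordering seen in 1.04% of all tested genes. Most came from near silence. The Ctrl mean was under 0.1 CPM in 43 of them and under 1 CPM in 63, their median level went from 0.0718 CPM in Ctrl to 2.94 CPM in KO, and 17 reached 10 CPM or more. The median log2 fold was 4.85 over the raised genes and 0.02 over all tested genes. The selection by this contrast fixes the first of these medians. It also favours genes with 1 direction in all sets and with KO above Ctrl, so those counts are no separate evidence. Of the 79 calls, 41 stayed in every fit that left out 1 of the 9 libraries. Without Ctrl replicate 3, 411 genes rose and 24 fell. With the length slope as a term as well, this became 69 calls, of which 51 rose and 18 fell. That fit was chosen after seeing the data. Without Ctrl replicate 1 there were 52 calls and without KO replicate 1 there were 51. The only other gene called lower, Dennd2d, a regulator of Rab GTPases, stood at 2.19, 4.25 and 5.11 CPM in Ctrl and 0.825, 0.494 and 1.34 in KO. It fell by 2.21 (SE 0.46) on the log2 scale (edgeR, adjusted p = 0.0106), and each KO library lay below the WT library of its set (0.999, 4.81 and 4.44 CPM), though the test against WT gave adjusted p = 0.106. The call was lost without Ctrl replicate 1 or 2 or KO replicate 2 or 3, and with the length slope when Ctrl replicate 2 was left out (adjusted p = 0.067).

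**Figure D2:**
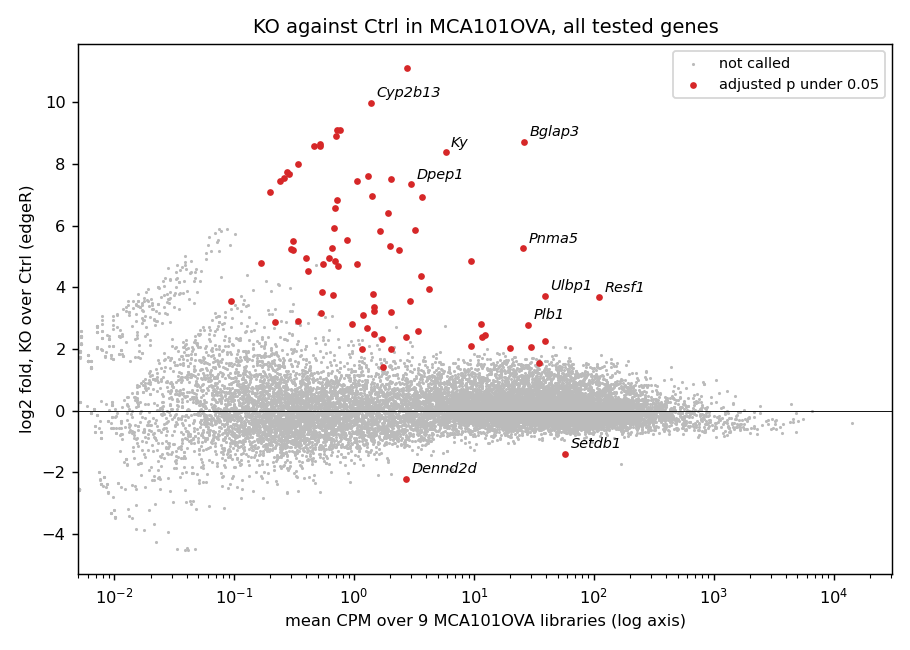
Log2 fold of KO over Ctrl (vertical axis) against the mean CPM over the 9 MCA101OVA libraries (horizontal axis, logarithmic) for all 16809 tested genes; red points passed an adjusted p under 0.05. The red points lie above 0 except Setdb1 and Dennd2d, and most of them have a low mean level.

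Promoter windows were available in RefSeq (GRCm38.p6, from 250 bases before to 50 after the start) for 56 of the 79 raised genes. The median number of CG steps in the window was 8 for raised genes, 21 for all 11195 tested genes with a window, 11 for the 2453 of them under 1 CPM in Ctrl, and 8 for all 27025 genes in the table. Motif shares are given for raised genes, then for all tested genes, for tested genes under 1 CPM in Ctrl and for the whole table. The E-box CACGTG, read on both strands like the other motifs, was present for 4 of the 56 (7.14%), and for 11.4%, 8.93% and 8.09%. TCCCGC, the E2F6 motif, was found for 14 (25%), and for 38.6%, 27.6% and 22.1%. The TATA box TATAAA was found for 9 (16.1%), and for 9.04%, 12.6% and 15.7%, and the interferon response motif for 1, Pnma5 (1.79%), and for 3.58%, 3.51% and 3.99%. The 250 bases upstream of 5 raised genes are shown 5′ to 3′ because they span this range of CG content, with CG steps in capitals.
Cyp2b13 (chr7:26061245-26061494, plus strand): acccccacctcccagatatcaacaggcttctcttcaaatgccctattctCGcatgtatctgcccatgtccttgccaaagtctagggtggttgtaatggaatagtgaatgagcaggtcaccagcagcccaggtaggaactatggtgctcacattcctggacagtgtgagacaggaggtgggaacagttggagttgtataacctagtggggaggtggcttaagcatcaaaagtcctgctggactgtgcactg
Ky (chr9:102505888-102506137, plus strand): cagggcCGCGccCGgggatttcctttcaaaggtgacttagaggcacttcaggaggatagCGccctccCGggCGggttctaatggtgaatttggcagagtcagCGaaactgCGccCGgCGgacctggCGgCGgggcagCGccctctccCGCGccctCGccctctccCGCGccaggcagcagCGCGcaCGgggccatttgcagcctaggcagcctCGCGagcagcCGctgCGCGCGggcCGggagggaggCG
Dpep1 (chr8:123185985-123186234, plus strand): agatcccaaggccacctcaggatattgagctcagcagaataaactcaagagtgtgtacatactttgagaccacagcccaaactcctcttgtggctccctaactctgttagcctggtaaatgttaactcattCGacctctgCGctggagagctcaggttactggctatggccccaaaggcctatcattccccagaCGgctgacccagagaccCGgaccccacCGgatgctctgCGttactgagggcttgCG
Tdrd9 (chr12:111971309-111971558, plus strand): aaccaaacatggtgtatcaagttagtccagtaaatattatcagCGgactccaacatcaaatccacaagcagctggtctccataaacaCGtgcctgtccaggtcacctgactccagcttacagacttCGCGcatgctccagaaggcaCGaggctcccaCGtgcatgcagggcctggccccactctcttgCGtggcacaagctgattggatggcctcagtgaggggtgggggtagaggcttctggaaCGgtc
Tex19.1 (chr11:121145893-121146142, plus strand): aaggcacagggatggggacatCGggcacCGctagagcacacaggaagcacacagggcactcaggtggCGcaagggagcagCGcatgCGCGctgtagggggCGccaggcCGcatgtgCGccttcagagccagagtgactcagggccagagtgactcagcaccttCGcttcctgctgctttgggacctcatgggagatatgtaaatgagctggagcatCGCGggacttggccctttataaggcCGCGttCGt
Ky has 29 CG steps in the printed stretch, Tex19.1 has 15, Tdrd9 has 8, Dpep1 has 7 and Cyp2b13 has 1. The E-box CACGTG occurs in the Tdrd9 window at 2 places, with first bases -165 and -95 from the start, and TCCCGC, read on both strands, in that of Ky at -106 and -88 and in that of Tex19.1 at -33. TATAAA occurs in the Tex19.1 window at -19. All 5 genes were near or at 0 in Ctrl and above 2 CPM in every KO library.

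Among the 22 raised genes named for their folds, Bglap3 had the highest mean level in KO. Resf1 and Ulbp1, raised genes with smaller folds, had higher KO means (272 and 96.3 CPM). Bglap3 is the third gene of the mouse osteocalcin cluster (chromosome 3, 88368616 to 88372743, minus strand). Its level was 0.351, 0.0914 and 0.114 CPM in Ctrl and 112, 63.7 and 57.9 CPM in KO, and 0.813, 0.341 and 0.0302 CPM in WT. The groups were far apart in all 3 sets, with a log2 fold of 8.72 (SE 0.65; edgeR, adjusted p = 1.04e-10). The adjacent osteocalcin genes did not share this change. Bglap, the bone matrix hormone gene, gave a log2 fold of -0.20 (adjusted p = 0.96) and Bglap2 had counts in only 1 of the 6 KO and Ctrl libraries. The copies are similar in sequence, and the treatment of reads that match several is not given, so the split between them is uncertain. Of 11 tested osteoblast and bone matrix genes, Bglap3 alone was called, and the median of the list was 1.22. Spp1, which encodes osteopontin, was 10.9, 33.8 and 22.3 CPM in Ctrl and 68.7, 172 and 68.8 in KO without passing the test (log2 fold 2.08, SE 0.62; edgeR, adjusted p = 0.23).

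Ky encodes a muscle protein of the Z-disc that is needed for muscle maintenance. It gave 3 counts in all over the Ctrl libraries (0.132, 0 and 0 CPM) and rose to 15.1, 23.9 and 12.9 CPM in KO (log2 fold 8.39, SE 0.88; edgeR, adjusted p = 2.09e-07). WT held 0, 0.0683 and 0. Of 17 tested skeletal muscle genes it was the only one called against Ctrl, and the median of the list was -0.17. Dnah7a, an axonemal dynein heavy chain of motile cilia, had no counts in Ctrl or WT of the same runs and stood at 1.86, 0.306 and 2.00 CPM in KO. Against the limit of 3 counts over the Ctrl group this is at least 30.9-fold higher. Its adjusted p (edgeR) was 0.0502 with the length slope when Ctrl replicate 3 was left out.

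Dpep1 encodes a membrane dipeptidase that cleaves glutathione conjugates and leukotrienes. Ctrl libraries held 0.0877, 0.0457 and 0 CPM and KO libraries 4.62, 16.1 and 6.11 CPM, with WT at 0.0697, 0 and 0. The log2 fold was 7.35 (SE 0.74; edgeR, adjusted p = 1.78e-07). Pnma5, an X-linked member of a family derived from a retrotransposon capsid gene, was already detectable. It went from 1.45, 0.457 and 6.79 CPM in Ctrl to 86.8, 41.7 and 86.1 in KO, and the lowest KO library was above the highest Ctrl library (log2 fold 5.26, SE 0.48; edgeR, adjusted p = 5.31e-08). Cd177, a surface glycoprotein of neutrophils, rose from 0, 0.0914 and 0.0382 CPM to 2.27, 1.60 and 1.79. Over the 9 libraries the leukocyte markers Itgam, Itgax and Ptprc stayed at or under 0.289 CPM, but the myeloid markers Cd14 (6.85 to 19.5 CPM), Lyz2 (1.20 to 3.57 CPM) and Cd68 (1.51 to 3.08 CPM) were detected. Their part in the Cd177 level was not tested.

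**Figure D3:**
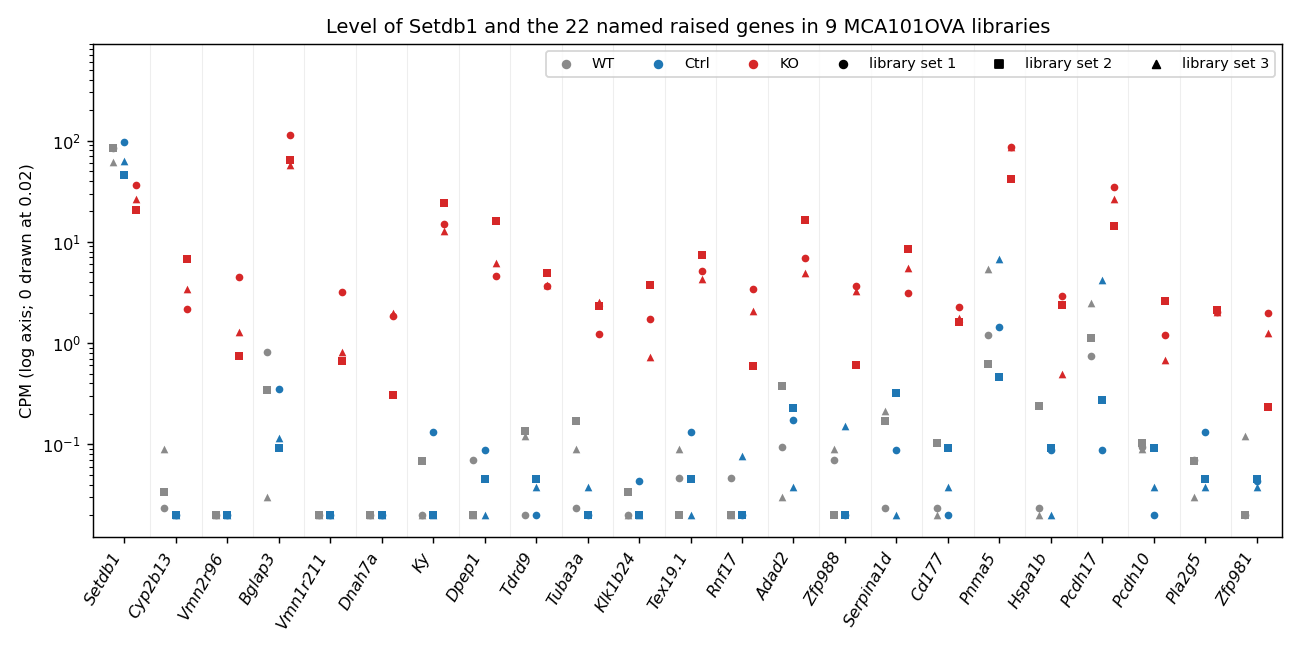
Level in CPM (vertical axis, logarithmic, with 0 drawn at 0.02) of Setdb1 and the 22 named raised genes in each of 9 MCA101OVA libraries; colour gives the group and marker shape the library set. KO points lie above Ctrl and WT for the raised genes, from 57.9 to 112 CPM for Bglap3, and below them for Setdb1.

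Germ line genes formed the list with the most members called outside the zinc finger family. The piRNA pathway uses small RNAs and Tudor-domain proteins to silence transposons in germ cells. Of its 14 tested members 4 rose, beside 0.47% of all tested genes, and none fell. The median of the list was 0.75 against 0.02 for all tested genes. Tdrd9, an RNA helicase of this pathway, was 0, 0.0457 and 0.0382 CPM in Ctrl and 3.63, 4.87 and 3.74 in KO (log2 fold 6.95, SE 0.79; edgeR, adjusted p = 7.41e-07). Tex19.1, which limits retrotransposition in germ cells and placenta, went from 0.132, 0.0457 and 0 to 5.16, 7.38 and 4.30 CPM (log2 fold 6.41, SE 0.79; adjusted p = 6.98e-06). Rnf17, a Tudor-domain protein of spermatids, had counts in Ctrl replicate 3 alone (0.0763 CPM) and stood at 3.38, 0.588 and 2.07 CPM in KO. Gtsf1, a zinc finger cofactor of Piwi proteins, was at 0.351, 0.365 and 0.687 CPM in Ctrl and 2.02, 1.15 and 7.76 in KO, with a wide spread between KO libraries (log2 fold 2.49, SE 0.55; adjusted p = 0.0342). Piwil2, a Piwi protein, did not pass against Ctrl (0.833, 0.228 and 0.878 against 2.06, 2.30 and 1.79 CPM; adjusted p = 0.059). Tdrd9 and Tex19.1 kept their calls without any 1 library, whereas Rnf17 lost its call without Ctrl replicate 1, KO replicate 1 or KO replicate 3, and Gtsf1 without Ctrl replicate 1 or 3 or KO replicate 1 or 3. With the length slope and Ctrl replicate 3 left out, the adjusted p was 0.304 for Rnf17 and 0.24 for Gtsf1.

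The other germ line lists had fewer calls, but they are short, and only 0.47% of all tested genes were called higher. None of 7 tested meiosis genes was called (median -0.33), and neither was any of 6 early embryo genes (median 0.71, close to that of the piRNA list, with 5 of 6 above 0) or 13 X-linked and PRAME-family cancer-testis genes (median 0.07). Tuba3a, a tubulin of the testis, was the called member among 3 tested spermatid genes, with 0, 0 and 0.0382 CPM in Ctrl and 1.24, 2.33 and 2.56 in KO. Adad2, an adenosine deaminase domain protein of spermatids, rose from 0.175, 0.228 and 0.0382 to 6.97, 16.4 and 4.91 CPM (log2 fold 5.85, SE 0.71; edgeR, adjusted p = 0.000191), with adjusted p = 0.0502 under the length slope when Ctrl replicate 3 was left out. The raised germ line genes therefore had KO levels of 0.588 to 16.4 CPM, below those of Bglap3 and Pnma5.

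Zinc finger genes with Zfp symbols, many of which encode KRAB repressors of transposons, gave 7 raised and no lowered genes among 360 tested. The raised share over all tested genes was 0.47%. Zfp988 was at 0 CPM in 2 Ctrl libraries and 0.153 in the third, and 3.67, 0.611 and 3.25 in KO (log2 fold 5.53, SE 0.71; edgeR, adjusted p = 1.02e-05). Zfp981 went from 0.0438, 0.0457 and 0.0382 CPM to 1.98, 0.235 and 1.27, and Zfp986 from 0, 0 and 0.0382 to 0.701, 0.141 and 0.611. The calls of Zfp981 (without Ctrl replicate 1 or KO replicate 1) and Zfp986 (without Ctrl replicate 1 or 2 or any KO replicate) were lost. With the length slope as a term the adjusted p of Zfp986 was 0.0598, and with Ctrl replicate 3 also left out that of Zfp981 was 0.407. In each of these 3 genes the KO library of set 2 was the lowest of the KO libraries. The median over the list was 0.55 against Ctrl and 0.21 against WT, and 293 of 360 members lay above 0 against Ctrl. Slope differences of 0.420 and 0.545 between KO and Ctrl in sets 1 and 2 stood beside this shift. The Zfp copies on chromosome 4 are near-identical, so the split of reads between them is uncertain. Against Ctrl and WT together, 16 Zfp genes rose and none fell, beside 0.851% of all tested genes raised.

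Of 30 tested clustered protocadherins, cell adhesion molecules of neurons chosen from tandem promoters, 3 rose, beside 0.47% of all tested genes. Pcdhgb2 stood at 0.701, 0.183 and 0.763 CPM in Ctrl, 5.03, 10.4 and 6.42 in KO and 0.860, 0.990 and 0.877 in WT (log2 fold 3.57, SE 0.42; edgeR, adjusted p = 1.26e-06). Pcdhgb1 (0.175, 0.0457 and 0.458 against 1.07, 2.49 and 1.69 CPM) and Pcdhb22 (0.351, 0.365 and 0.305 against 1.98, 4.07 and 1.69 CPM) rose against Ctrl, yet their tests against WT gave adjusted p = 0.788 and 0.245. The list median was 0.90 against Ctrl and -0.32 against WT. Their summed level was 37.3 CPM in Ctrl replicate 2, the library with the slope of -0.700, and 118 to 178 CPM in the other 8 libraries. Genes of the gamma group, among them Pcdhgb1 and Pcdhgb2, share 3' exons, so counts cannot be assigned to single gamma members with certainty. Pcdhb22 ends before the span of both begins. Outside the cluster, Pcdh17 rose from 0.0877, 0.274 and 4.24 CPM to 34.8, 14.4 and 26.6 (log2 fold 4.85, SE 0.75; adjusted p = 0.000191) and Pcdh10 from 0, 0.0914 and 0.0382 to 1.20, 2.61 and 0.682 (log2 fold 4.77, SE 0.95; adjusted p = 0.0351). Pcdh17 kept its call without any 1 library, and Pcdh10 lost it in 7 of the 9 such fits and with the length slope as a term (adjusted p = 0.183). Pcdhb22 lost its call with the length slope when Ctrl replicate 3 was left out (adjusted p = 0.15).

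Genes that immune cells read were examined next. NKG2D is an activating receptor of natural killer and T cells, and 2 of its 4 tested ligands rose. Ulbp1 stood at 2.76, 2.42 and 22.2 CPM in Ctrl, 163, 32.3 and 93.8 in KO and 7.32, 10.2 and 14.97 in WT, so that each KO library exceeded all 6 others (log2 fold 3.73, SE 0.57; edgeR, adjusted p = 0.000167). Raet1e stayed low, at 0, 0.137 and 0.0382 CPM in Ctrl and 0.330, 0.823 and 0.259 in KO (log2 fold 2.87, SE 0.69; adjusted p = 0.0483), and overlapped the WT level of 0.307 CPM in set 2. Its call was lost in 6 of the 9 fits without 1 library and with the length slope when Ctrl replicate 2 was left out (adjusted p = 0.0963), and it overlaps Raet1d on the genome, so that reads of both cannot be assigned with certainty. P2rx7, an ATP-gated channel, rose from 2.15, 2.92 and 8.74 to 9.61, 24.4 and 51.3 CPM (log2 fold 2.44, SE 0.39; adjusted p = 0.000232), in each set above its own Ctrl and WT library.

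No gene of antigen presentation or interferon response was called. This held for 25 tested genes of MHC class I presentation (median -0.20), 51 interferon-stimulated genes (median 0.18), 18 nucleic acid sensors and their regulators (median 0.19), 12 checkpoint and costimulatory ligands (median 0.08) and 13 chemokines (median -0.15). The class I heavy chain gene H2-K1 was 136, 517 and 595 CPM in Ctrl and 107, 749 and 410 in KO. Isg15, a ubiquitin-like interferon product, was 10.4, 206 and 548 CPM in Ctrl and 5.20, 416 and 261 in KO. The order of KO and Ctrl differed between sets for both genes, and set 1 was lowest in each group. The summed interferon-stimulated level was 310 to 340 CPM in the 3 libraries of set 1, 1302 to 4487 CPM in set 2 and 2562 to 5538 CPM in set 3. A test that misses the threshold at this spread does not show equal levels. Over all tested genes only 0.47% were called higher and 0.0119% lower, so lists of these sizes may hold no call without standing apart.

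Enzymes of lipid and xenobiotic metabolism included several of the highest folds. Cyp2b13, a hepatic cytochrome P450 of female mice, had 0 counts in all Ctrl libraries and 2.15, 6.75 and 3.39 CPM in KO, at least 104-fold higher against the limit of 3 counts over the Ctrl group (edgeR, adjusted p = 9.54e-05). With the length slope as a term and Ctrl replicate 3 left out, its adjusted p was 0.382. Cyp4a12b, of the fatty acid hydroxylase family, was also at 0 in Ctrl and at 0.701, 1.01 and 0.423 CPM in KO, at least 16.9-fold higher, but its call was lost in 7 of the 9 fits without 1 MCA101OVA library and with the length slope as a term (adjusted p = 0.19). These were the only raised members of 19 tested P450 genes, and the median of the list was 0.01. Close copies exist in both subfamilies, which makes the assignment of reads uncertain. Of 13 tested phospholipases A2 and B, 2 rose. Pla2g5, a secreted phospholipase A2, went from 0.132, 0.0457 and 0.0382 to 2.02, 2.14 and 2.05 CPM (log2 fold 4.69, SE 0.45; adjusted p = 5.01e-08), with the KO libraries within 0.12 CPM of each other. Plb1, phospholipase B, rose from 6.88, 3.11 and 23.4 to 44.4, 66.5 and 80.5 CPM (log2 fold 2.78, SE 0.47; adjusted p = 0.000571). Serpina1d, an alpha-1 antitrypsin gene of the liver, went from 0.0877, 0.320 and 0 to 3.14, 8.51 and 5.50 CPM, a call lost without Ctrl replicate 1 or KO replicate 1, and with the length slope when Ctrl replicate 3 was left out (adjusted p = 0.57). Klk1b24, a kallikrein, went from 0.0438, 0 and 0 to 1.73, 3.72 and 0.729 CPM, and is likewise a member of a family of near-identical copies. The call of Klk1b24 was lost with the length slope as a term (adjusted p = 0.0578).

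Vomeronasal receptors, which detect pheromones in the nose, gave 3 raised genes among 18 tested vomeronasal and olfactory receptors, beside 0.47% of all tested genes. The counts list 1960 such receptors, so most held too few reads to be tested. Vmn2r96 (4.46, 0.752 and 1.29 CPM in KO), Vmn1r211 (3.18, 0.658 and 0.823) and Vmn1r212 (1.40, 0.329 and 0.729) had no counts in any Ctrl or WT library of the same runs. Among the MCA101OVA libraries these genes could thus pass the count filter only through KO, so the share of 3 in 18 depends on that filter. They were at least 42.2-fold, 30.3-fold and 17.1-fold higher than the limit of 3 counts over the Ctrl group. The calls of Vmn1r211 and Vmn1r212 were each lost when Ctrl replicate 1 or 2 or any KO replicate was left out, and that of Vmn2r96 without KO replicate 1 (adjusted p = 0.055). With the length slope as a term the adjusted p was 0.107 for Vmn1r211 and 0.104 for Vmn1r212, and with Ctrl replicate 3 also left out it was 0.408 for Vmn2r96. Hspa1b, an inducible heat shock protein, rose from 0.0877, 0.0914 and 0 to 2.93, 2.40 and 0.494 CPM and was the called gene among 26 tested stress genes.

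Of 20 tested genes encoding Setdb1, its cofactors, the HUSH complex and readers of its mark, Resf1 rose and Setdb1 fell. The median of this list was 0.73 against Ctrl and 0.54 against WT, with 16 of 20 members above 0 against Ctrl, beside 0.02 for all tested genes. Resf1 encodes a protein that binds Setdb1 and helps silence retroviral elements. It stood at 6.18, 2.83 and 94.7 CPM in Ctrl, 458, 47.03 and 311.6 in KO and 24.9, 10.4 and 41.2 in WT (log2 fold 3.68, SE 0.70; edgeR, adjusted p = 0.00312). KO exceeded Ctrl within every set, but the groups overlapped, since Ctrl of set 3 lay above KO of set 2. With no replicate block its adjusted p was 0.975, and it was 0.15 without Ctrl replicate 1 and 0.0875 without Ctrl replicate 2. Trim28, the corepressor that recruits Setdb1, was 598, 175 and 278 CPM in Ctrl and 370, 586 and 284 in KO (adjusted p = 0.87). Log2 folds that did not pass the test reached 2.07 for Atrx, a chromatin remodeller (adjusted p = 0.471). Atf7ip gave a log2 fold of 0.84 (adjusted p = 0.497), Mphosph8 1.48 (adjusted p = 0.204) and Fam208a, the HUSH subunit also called Tasor, 1.87 (adjusted p = 0.316). These rises were small in set 3. Log2 ratios of KO to Ctrl in sets 1, 2 and 3 were 4.71, 1.70 and 0.17 for Atrx and 4.24, 2.10 and 0.01 for Fam208a. They were 3.25, 1.79 and 0.08 for Mphosph8 and 0.60, 2.53 and 0.12 for Atf7ip. Beside them stood slope differences of 0.420, 0.545 and -0.129, whose part in this list was not tested. None of 19 other genes of H3 lysine 9 and DNA methylation was called (median 0.15). Further lists without a call were the imprinted genes (18 tested), extracellular matrix (37), Hox (36), cell cycle (32), p53 targets (24), sterol synthesis (23) and mitochondrially encoded genes (20 tested, median -0.26). With 0.47% of all tested genes called higher, lists of these sizes may hold no call. Neuronal genes had no call either, although their median was 1.79 with 10 of 13 tested members above 0, and the same held for the Padi family of arginine deiminases (3 tested, median 1.21).

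Raised genes often stood next to each other. A raised gene within 250 kb was found for 22 of the 79 (27.8%) and for 2.88% of the other tested genes, and these 22 formed 9 groups. Neighbours outside the naming rule are given here because of their position, after their values were seen. On chromosome 7 (26009889 to 26096197, mm10) Cyp2b13 lay beside the non-coding BC026762, which rose from 0.132, 0.137 and 0 to 1.28, 2.56 and 0.470 CPM and was not called with the length slope as a term. On chromosome 8 (123165255 to 123201812) Dpep1 followed the non-coding Gm4316 on the same strand, whose level went from 0.0438, 0.0914 and 0.0763 to 12.3, 15.4 and 5.03 CPM. In each of these 4 genes the KO library of set 2 was the highest. On chromosome 9 (78257129 to 78355788) the glutathione transferase Gsta2 and its relative Gm3776 rose, the latter to 15.6, 3.08 and 2.14 CPM. On chromosome 12 (103744030 to 103804362) Serpina1d lay between the pseudogenes Gm17042 and Gm17043, all 3 raised, and similar sequences make the split of their reads uncertain. On chromosome 13 the pair was Vmn1r211 and Vmn1r212, and on chromosome 11 Tex19.1 and Sectm1a. The group on chromosome 4 held Zfp988, Zfp978, Zfp985 and Zfp979, with 5 of 5 tested genes in the span above 0. Zfp981 and Zfp986 lay outside it. Zfp978, Zfp985 and Zfp979 each lost their call without Ctrl replicate 1 and without KO replicate 1. Zfp979 lost it in 5 of the fits without 1 library. The group on chromosome 18 held Pcdhb22, Pcdhgb1 and Pcdhgb2, with 17 of 20 above 0. The last group was Tnfrsf22 and Tnfrsf23 (chromosome 7, 143634806 to 143685872), decoy receptors for TRAIL. Tnfrsf23 stood at 28.7, 2.01 and 18.9 CPM in Ctrl and 68.3, 59.5 and 45.5 in KO. Tnfrsf23, Gm17042 and Zfp979 were not called with the length slope as a term. Both Tnfrsf calls were lost without Ctrl replicate 2, KO replicate 1 or KO replicate 2.

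The question whether the control cells themselves had changed was addressed by Ctrl against WT. No gene was called (0% of 16809, edgeR), 355 genes had an unadjusted p under 0.05, and DESeq2 called 1. A test without calls does not show that the control cells were unchanged. On simulated counts the KO against Ctrl test, with groups of the same size, recovered 17% of 2-fold changes. KO against WT gave 95 higher (0.565%) and 1 lower gene (0.00595%), Setdb1, with a log2 fold of -1.45 (adjusted p = 0.00135). Without KO replicate 1 this comparison gave 58 calls and without WT replicate 1 it gave 51. Of the 79 genes raised against Ctrl, 70 were also called against WT. The KO libraries are shared by both comparisons. The values stood side by side at 8.72 and 7.93 for Bglap3, 8.39 and 9.63 for Ky, 7.35 and 8.07 for Dpep1, 5.26 and 5.55 for Pnma5, and 3.73 and 3.09 for Ulbp1 (log2 fold against Ctrl and WT). Against Ctrl and WT together, 143 genes rose (0.851%) and 3 fell (0.0178%; Setdb1, Dennd2d and the myosin gene Myo1h, named after its values were seen), and the 143 included all 79. The share of tested genes called in this contrast, 0.869%, was 1.85% without Ctrl replicate 3 and 0.475% without KO replicate 1. Of the lists, this contrast added Piwil2, the ion channel gene Cnga3, the embryonic myosin Myh3, the receptor Vmn1r43 and the epithelial regulator Grhl2. Grhl2 was 1.27, 0.502 and 2.37 CPM in Ctrl, 1.30, 1.91 and 1.33 in WT and 3.38, 3.79 and 5.93 in KO, with Epcam at 0 and Cdh1 at or below 0.102 CPM in the same libraries.

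Healthy tissues gave a scale for these levels, in CPM of separate experiments that were not tested against the tumour cells. Of the 79 raised genes, 29 (36.7%) had a mean under 1 CPM in each of 12 tissues, against 12.8% of all tested genes. Since 63 of the 79 were under 1 CPM in Ctrl, the 2 shares cover genes of unlike level. Whether the share differs from that of other genes low in Ctrl was not tested. The tissue with the highest mean was the ovary for 19 of the 79, the brain for 11 and the skin for 10. Over all tested genes these tissues were highest for 9.89%, 16.5% and 8.03%. Of the 19 genes highest in ovary, 10 reached 1 CPM there. Tissue mean levels of Tdrd9, Tex19.1, Rnf17 and Tuba3a were highest in ovary, at 2.01, 1.91, 2.97 and 2.01 CPM, and the KO means of 4.08, 5.61, 2.01 and 2.04 CPM lay near or above them. Testis is not among the 12 tissues. Pnma5 reached at most 0.609 CPM in any tissue, in brain, and 71.5 ± 25.8 CPM in KO (SD, n = 3). The Bglap3 mean of 78.0 ± 30.0 CPM in KO compared with 56.3 CPM in skin, and the Ky mean of 17.3 ± 5.84 CPM with 25.3 CPM in heart. Serpina1d had 3368 CPM in liver against 5.72 ± 2.69 in KO, Cyp2b13 had 205 CPM in liver against 4.09 ± 2.38, and Gsta2 had 494 CPM in kidney against 0.571 ± 0.544. Klk1b24, by contrast, was highest in kidney at 0.649 CPM and stood at 2.06 ± 1.52 CPM in KO, and Cyp4a12b had 2.64 CPM in kidney against 0.712 ± 0.294.

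**Figure D4:**
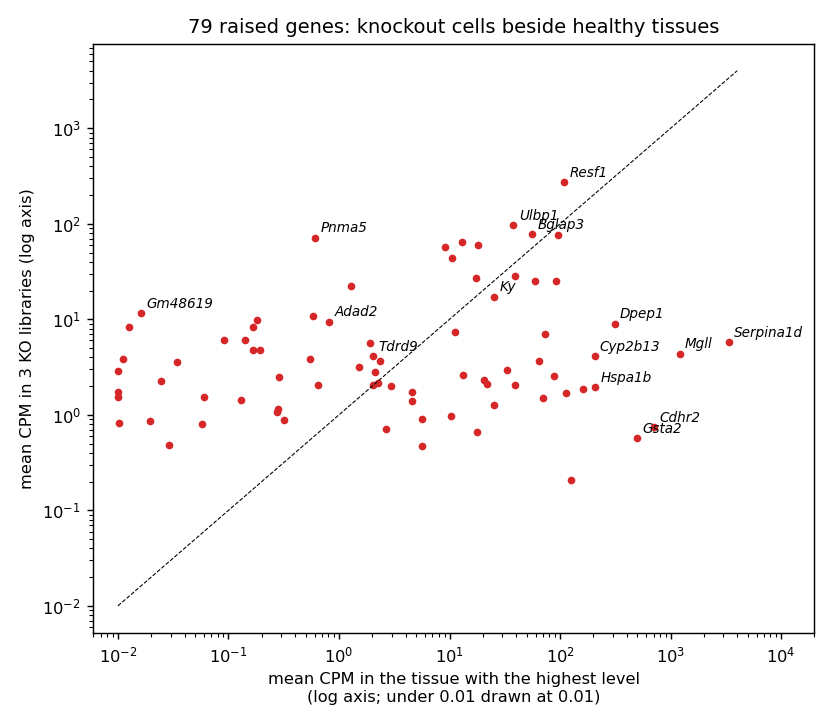
Mean CPM of the 79 raised genes in 3 KO libraries (vertical axis) against their mean CPM in the healthy tissue where they are highest (horizontal axis), both logarithmic; the dashed line marks equal levels. Pnma5 lies far above the line, with 71.5 CPM in KO and 0.609 in brain, and Serpina1d far below it.

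The knockout effect in MCA101OVA was set against that in the other tumour lines, melanoma lines B16 and B16OVA and the colon carcinoma line MC38. Setdb1 itself had log2 folds of -1.86 in B16, -1.17 in B16OVA and -0.52 in MC38, where it was not called. The KO and Ctrl libraries of MC38, and part of those of B16OVA, came from a run without MCA101OVA libraries. For MC38, line and run thus cannot be told apart. Among all tested genes 0.779% rose in B16, 1.33% in B16OVA and 0.744% in MC38. Of the 79 genes raised in MCA101OVA, 23 (29.1%) also rose in B16, 25 (31.6%) in B16OVA and 26 (32.9%) in MC38, which are 17.6%, 11.2% and 20.8% of the genes raised in those lines. All 3 other lines shared 11 of the 79, among them Bglap3, Tdrd9, Zfp988, Zfp981, Pla2g5, Ulbp1 and Plb1. For Bglap3 the log2 folds were 8.47, 8.45 and 4.41 in B16, B16OVA and MC38. For 39 of the 79 no other line passed the test, which does not show that the effects differ.

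**Figure D5:**
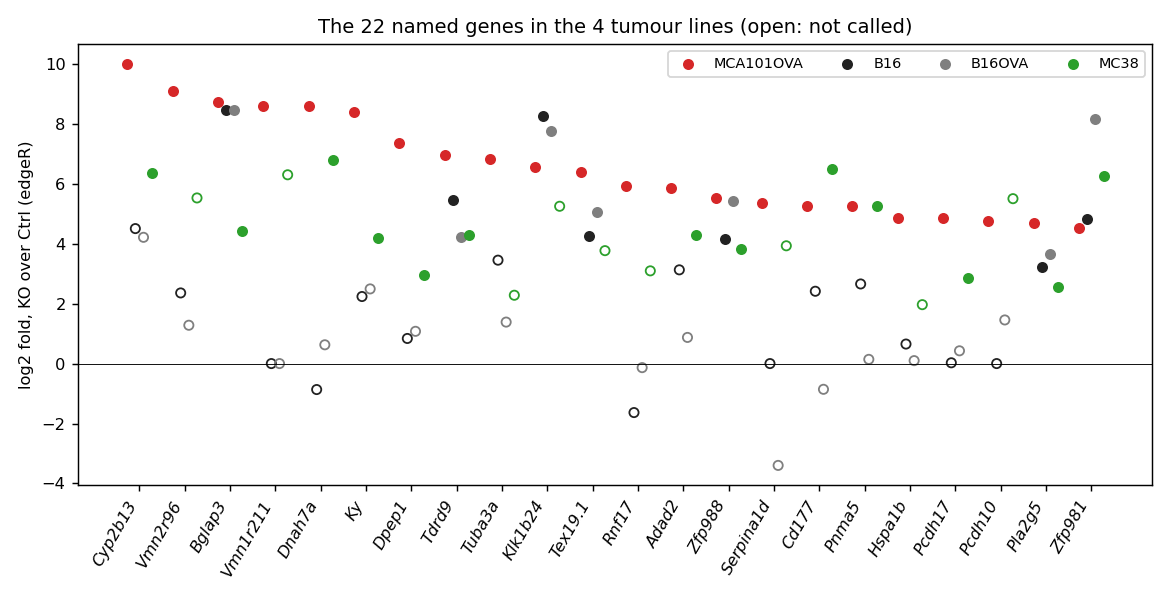
Log2 fold of KO over Ctrl (vertical axis) for the 22 named genes in MCA101OVA, B16, B16OVA and MC38; filled points passed an adjusted p under 0.05 and open points did not. Bglap3, Tdrd9, Zfp988, Pla2g5 and Zfp981 are filled in all 4 lines.

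The difference itself was tested as the MCA101OVA effect minus the mean effect of the 3 other lines. It was called higher for 2 genes (0.0119%) and lower for 5 (0.0297%), together 0.0416% of tested genes, which became 0.185% without Ctrl replicate 3. The 2 higher genes were Dpep1 and Pcdhgb2. Dpep1 had a difference of 5.73 (SE 0.83, edgeR, adjusted p = 0.0006). Its log2 folds were 0.84, 1.08 and 2.96 in B16, B16OVA and MC38, and it was also called in MC38 (edgeR, adjusted p = 0.0251). Pcdhgb2 had a difference of 2.81 (SE 0.45, edgeR, adjusted p = 0.0023). Its log2 folds were -0.29 in B16, -0.10 in B16OVA and 2.66 in MC38, where it was also called (adjusted p = 0.000248), against 3.57 in MCA101OVA. Pcdhgb2 was already expressed in the melanoma lines, at 77.2 and 64.1 CPM in Ctrl of B16 and B16OVA, against 0.425 CPM in MC38, which rose to 2.90 CPM. On the other side, Slc35f3, a thiamine transporter gene, was 1.71, 1.64 and 8.70 CPM in MCA101OVA Ctrl and 3.18, 2.92 and 13.7 in KO, while its Ctrl means were 0.104, 0.0186 and 0.103 CPM in the other lines (difference -3.35, SE 0.47; adjusted p = 0.00033). Dppa4, a pluripotency-associated gene, likewise had 2.72, 4.34 and 2.86 CPM in MCA101OVA Ctrl and 5.41, 5.38 and 6.70 in KO, against Ctrl means of 0.0071, 0.019 and 0.164 CPM in the others (difference -3.72, SE 0.62; adjusted p = 0.0036). Both were thus already present in MCA101OVA cells with Setdb1, and their log2 folds there, 0.66 and 0.70, did not pass the test. The remaining genes were Padi3, Gm14267 and Kank4os, which fall outside the naming rule and are named after their values were seen.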

How the data were processed

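Poly(A) RNA was sequenced from stranded TruSeq libraries, per the labels' protocols. The submitters' processing notes name the build mm10 and the tools HTSeq, STAR, FastQC and Trim Galore. The sources used here give no versions, annotation, strand setting or rule for reads with several matches. Deposited raw counts per Ensembl gene were used. A second deposited table equals the same counts divided by 1 number per library (checked in all 105 columns at a relative tolerance of 1e-04) and was not used. Of 53379 gene IDs, 53274 matched GENCODE vM21.

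Counts of 45 cultured tumour libraries were fitted in edgeR 4.0.16 (R 4.3.3; TMM, filterByExpr, quasi-likelihood test, Benjamini-Hochberg) with a term per group and per library set within a line, leaving 26 residual degrees of freedom. A gene was called at an adjusted p under 0.05. SE is the log2 fold over the root of F. Pairing by set came from run and library number: all 9 same-set pairs of deviations from group means correlated above 0.1 (0.208 to 0.868). No 2 libraries of a group agreed within sampling noise. CPM is counts per 1000000 library counts, of which libraries held 21893710 to 43028838. A fold against a group at 0 uses a limit of 3 counts over the group, which covers counting error only. The length slope is fitted across genes with at least 5 CPM.

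Named genes were called genes with at least 1 CPM in KO or Ctrl, 1 direction in every set and no predicted symbol: the 22 highest and 6 lowest, up to 3 called members of each list, Setdb1 partners, and 5 and 5 for the difference between lines. Only 2 genes fell. Members, lists and rule were chosen with earlier results of these data known. On simulated counts (16809 genes, 200 changed), KO against Ctrl recovered 82% of 4-fold and 17% of 2-fold changes, with 4 false among 103 calls. Of 4-fold changes, 88% of rises and 76% of falls were recovered. Only genes with a fitted mean of at least 10 counts were changed, so recovery was not measured for genes near 0 in Ctrl. Alternatives were RLE scaling, other filters, DESeq2 1.42.0, other designs, a 1.5-fold minimum, a length slope term and each library left out.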

Additional observations from a re-analysis of the deposited data

Results flagged for a closer look

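The effect of the knockout in MCA101OVA differed, by a test of the difference itself, from the mean effect in B16, B16OVA and MC38 for 7 genes (edgeR, adjusted p under 0.05 over 16809 genes). The difference on the log2 scale was 5.73 for Dpep1 and 2.81 for Pcdhgb2, both higher in MCA101OVA but also called higher in MC38. It was -2.74 for Kank4os, -3.35 for Slc35f3, -3.72 for Dppa4, -4.15 for Padi3 and -4.52 for Gm14267. Gm14267 went from 0.149 to 25.1 CPM in B16 and Padi3 from 0.184 to 27.4 CPM (means of Ctrl and KO), while Gm14267 stood at 0.526, 0.776 and 3.01 CPM in MCA101OVA Ctrl and 2.10, 1.74 and 7.501 in KO, and Padi3 at 0.614, 0.183 and 0.0763 against 0.619, 1.41 and 0.282. Kank4os, an antisense transcript, held 8.33, 17.2 and 13.7 CPM in MCA101OVA Ctrl, above the Ctrl mean of 1.26 CPM in B16. The rises in MC38 were smaller than in B16. Gm14267 went from 0.153 to 1.19 CPM there, Padi3 from 0.300 to 1.25 and Kank4os from 1.20 to 2.35. For these genes in that order, log2 folds were 7.33, 6.91 and 3.83 in B16OVA and 2.93, 1.98 and 0.91 in MC38. They were 1.37, 1.23 and -0.03 in MCA101OVA. In MC38 only Gm14267 was called (edgeR, adjusted p = 0.0139). With each of the 9 MCA101OVA libraries left out in turn, 5 to 32 genes were called for this difference, with 32 in the fit without Ctrl replicate 3. No flag was set for single outlying libraries within groups of 3.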

How the results depend on the processing

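The 81 calls of KO against Ctrl became 40 with the 9 MCA101OVA libraries alone and the replicate block, 626 without a filter on low counts and 53 with no replicate block. Fits that left out 1 library gave 51 to 435 calls. Chosen after seeing the data, the length slope with Ctrl replicate 3 left out gave 69 calls, 18 of them lower. Among the 69 were 35 of the 79 raised genes. With the length slope and the block, 76 genes were called, 6 of them lower, and DESeq2 called 77, 8 of them lower; each kept 60 of the 79. In every alternative 21 of the 79 stayed called. Ctrl against WT gave 1 call in DESeq2, 1 with the length slope, alone or with Ctrl replicate 2 or 3 left out, 3 without a filter and 0 to 1 with 1 library left out. KO against WT, with 96 calls, gave 43 in the 9 libraries, 162 with the length slope and Ctrl replicate 2 left out, 226 without a filter, 59 with no replicate block and 51 to 106 with 1 library left out. For KO against Ctrl and WT the share of tested genes called, 0.869%, became 0.517%, 1.97% and 2.12% under the first 3 of these and 0.475% to 1.85% with 1 library left out. For the difference between lines the share, 0.0416%, became 0.19% in DESeq2, 0.0952% with the length slope, 0.0929% and 0.185% with Ctrl replicate 2 or 3 left out as well, 1.04% without a filter, 0.0238% with no replicate block and 0.029% to 0.185% with 1 library left out. Setdb1 kept its direction in all alternatives run. Its log2 fold was -1.44 (adjusted p = 0.281, edgeR) in the 6 KO and Ctrl libraries, -1.40 (0.122) in the 9 libraries, -1.39 (0.0827) against a 1.5-fold minimum and -1.41 (0.0644) with no replicate block, and -1.51 to -1.26 with 1 library left out. For the other named genes 580 of 697 alternative values kept the call, 117 lost it and none changed sign. The cause of these shifts was not tested.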
